A study of Homo sapiens with 9 samples.

Results

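CDKN1A, MDM2, GADD45A, GADD45B, BTG2, BBC3, PLK3 and XPC are growth arrest and p53 target genes, and RNA polymerase II (RNAPII) was followed over all 8 of them. They were chosen by name from the 19794 protein-coding genes of GENCODE on GRCh37. Every RNAPII peak that overlapped the span of a gene, widened by 500 bp on each side, was taken, which gave 88 of the 142069 peaks in 5 deposited lists. Peaks that came within 500 bp of a coding transcript's start (transcription start site, TSS) are called TSS peaks, and the remaining peaks of a gene body peaks. Some body peaks therefore lay mostly past the end of the gene.

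The study asked how RNAPII is distributed when RECQL5, a DNA helicase bound to RNAPII, is depleted or overproduced. ChIP-seq of RNAPII (chromatin immunoprecipitation, then sequencing) was done in HEK293, a human embryonic kidney line, after lentiviral infection. The virus carried a short hairpin, RECQL5 shRNA 5 (shRNA5) or RECQL5 shRNA 7 (shRNA7), or was a control. Per the study's methods the control virus was an empty vector, and it is called the control shRNA below. Its list and those of the RECQL5 hairpins are called the hairpin lists. The other 2 RNAPII libraries came from HEK293T-Rex cells carrying pcDNA4/TO-RECQL5-FL, a Zeocin-selected plasmid with full-length RECQL5 under a tetracycline-responsive promoter, at 0.0 or 1.0 ng/ml doxycycline. IgG libraries were the background of the peak calls. All these cells carry adenoviral E1 proteins, which bind p53 and the retinoblastoma protein, and this limits them as a model of p53 signalling. Each group was 1 library, so no difference below has a replicate check or a p-value, and intervals are 95% intervals that cover counting error only.

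p53 is a transcription factor that binds DNA as a tetramer and switches on its targets when DNA is damaged or cells are stressed. Its targets halt the cell cycle, repair DNA or start apoptosis, and MDM2, itself a target, marks p53 for degradation and so closes a feedback loop. Several of these genes are also immediate-early genes that respond to stress and growth signals without p53. In many of them RNAPII is already engaged near the TSS before p53 acts.

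The p53 response element, 2 decamers in a row, was searched on both strands within 3 kb of each TSS in the GRCh37 sequence, with the letters CNNG required at the core of each decamer and at most 2 mismatches elsewhere. A match was found in 5 of the 8 genes (62.5%) and in 1524 of all 19794 coding genes (7.7%). The 5 matches are shown, on the strand of the gene with the CNNG cores in capitals, because the RNAPII peaks are set against them below.
CDKN1A, chr6:36644226-36644245, plus strand: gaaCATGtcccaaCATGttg
MDM2, chr12:69202703-69202722, plus strand: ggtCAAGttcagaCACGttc
GADD45A, chr1:68152458-68152477, plus strand: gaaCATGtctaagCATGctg
GADD45B, chr19:2478019-2478038, plus strand: agaCTTGgttgaaCTTGgtt
BTG2, chr1:203272770-203272789, plus strand: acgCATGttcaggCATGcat

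The GADD45A match had 1 mismatch and the other 4 had 2 each. A match in these letters is not a measurement of p53 binding, and p53 itself was not profiled.

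The 100 bases before an annotated TSS near the summit are shown for the 3 genes where the polymerase summit sat most closely on an annotated start in every list. In all 3 another annotated TSS, slightly downstream of the printed bases, was nearest to the summit. Capitals mark the p53 cores in MDM2 and the letters TATAAA, searched from 40 to 20 bases before the TSS on the gene's strand, in GADD45B. Of the 8 genes, GADD45B alone held TATAAA there, against 4.78% of all coding genes.
CDKN1A, chr6:36646387-36646486, plus strand: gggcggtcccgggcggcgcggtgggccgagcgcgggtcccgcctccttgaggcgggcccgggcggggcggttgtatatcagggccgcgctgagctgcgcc
MDM2, chr12:69202682-69202781, plus strand: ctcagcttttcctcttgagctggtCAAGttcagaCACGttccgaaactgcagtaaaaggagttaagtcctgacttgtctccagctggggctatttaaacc
GADD45B, chr19:2476025-2476124, plus strand: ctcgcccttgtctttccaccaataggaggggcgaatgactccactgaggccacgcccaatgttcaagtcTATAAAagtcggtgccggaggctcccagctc

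The 8 genes already carried RNAPII in the control shRNA list, where most genes had no peak. A TSS peak was present in 7 of the 8 genes with the control shRNA and in all 8 in each of the other lists. The background shares of all coding genes with a TSS peak were 17.3% with the control shRNA, 44.5% with shRNA5 and 52.8% with shRNA7, then 57.0% without doxycycline and 48.2% with it. In the same order, a body peak was present in 7, 5, 3, 7 and 5 of the 8 genes, against 10.1%, 32.8%, 40.3%, 42.1% and 29.4% of all coding genes. Fewer of the 8 genes thus had a body peak upon shRNA7 than with the control shRNA, 3 against 7, while the share among all genes was higher upon shRNA7. With only the peaks whose significance score (10 times the negative log10 of the peak caller's p-value) was at least 100, this contrast was 3 against 4. The 3 hairpin lists as used here hold fewer peaks than the study's methods give for them, by the largest proportion with the control shRNA, and the shares and overlaps below rest on these lists.

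Peaks over the 8 genes held 3714 tags with the control shRNA, 7864 with shRNA5 and 22092 with shRNA7, and in the doxycycline arm 3526 tags at 0.0 ng/ml and 4981 at 1.0 ng/ml. These were 0.441%, 0.208%, 0.330%, 0.243% and 0.323% of the tags in all peaks of each list, which held between 842310 and 6698771 tags. The larger totals of the hairpin lists therefore did not come with a larger share for these genes. In single libraries, more polymerase on the genes and a more efficient immunoprecipitation cannot be told apart. Of 6 genes looked at as HEK293 markers (VIM, NES, ENO2, PAX2, PODXL and LHX1), 1 had a TSS peak with the control shRNA, 1 with shRNA5, 3 with shRNA7, 5 without doxycycline and 1 with it. VIM had one in every list, so most of these markers had none in the control shRNA, shRNA5 and doxycycline lists. Of 7 marker genes of other cell types (PTPRC, CD3E, ALB, INS, TNNT2, COL1A1 and KRT5), COL1A1 alone had one, in 3 lists with 55 tags at most.

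**Figure D1:**
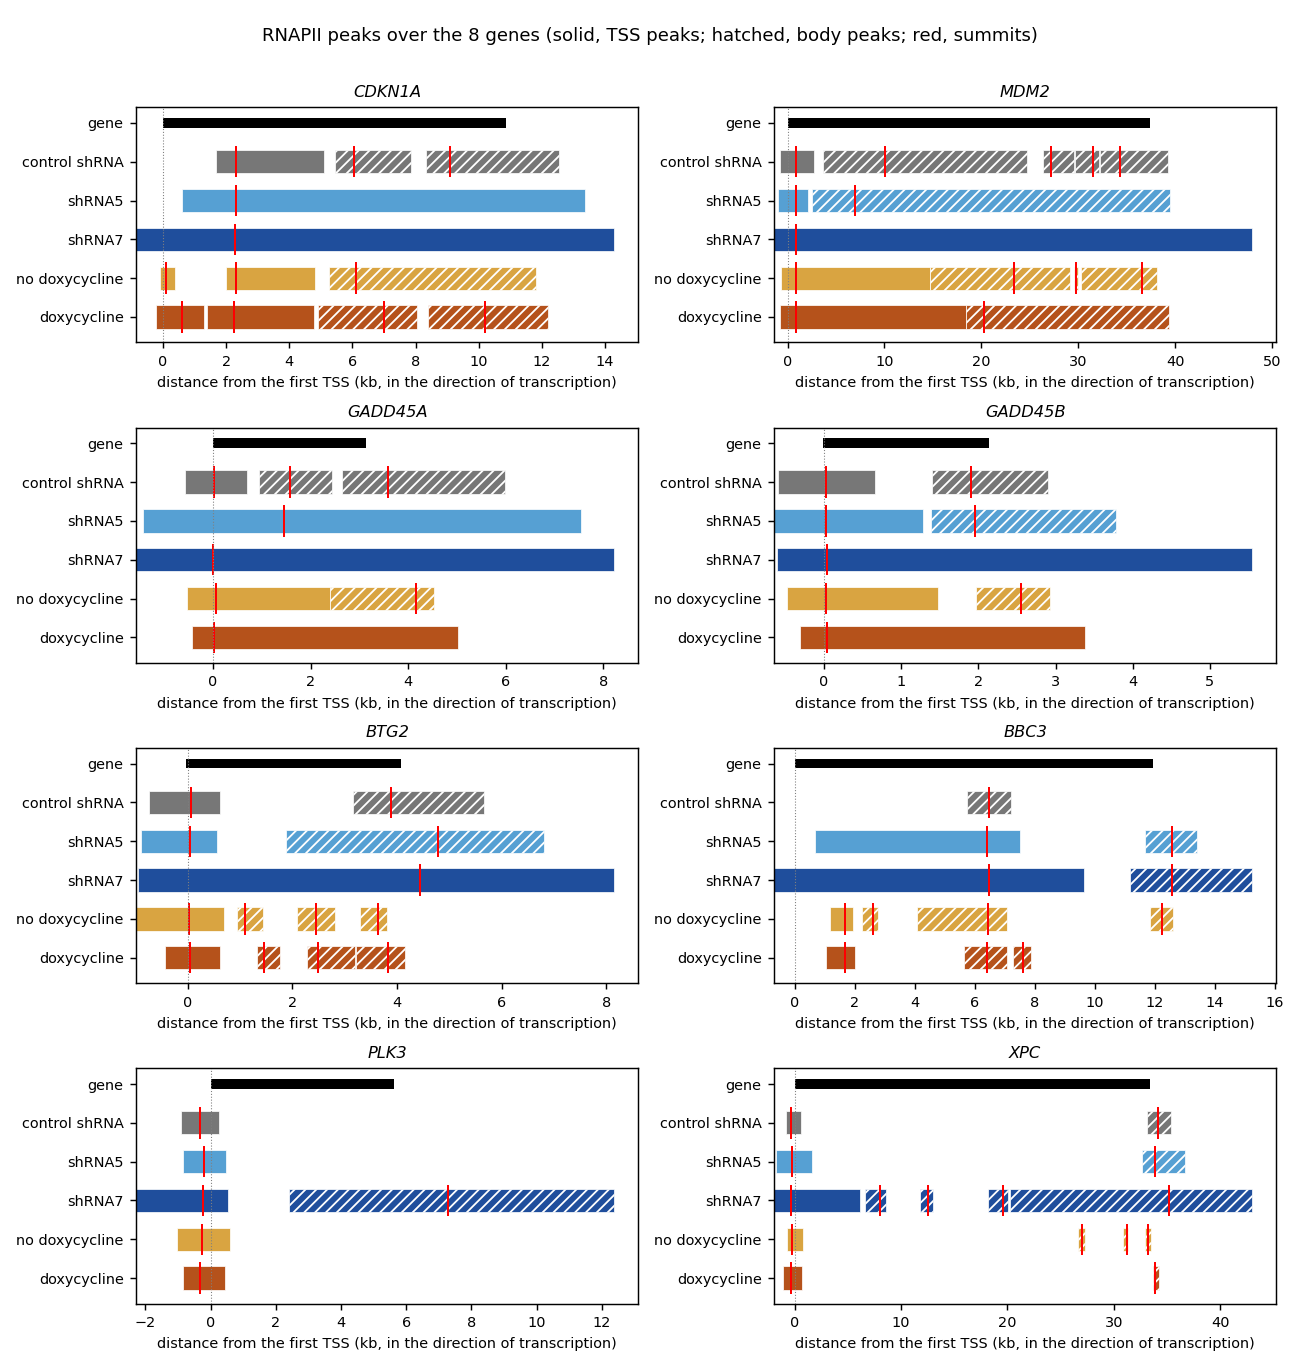
RNAPII peaks of the 8 genes in the 5 lists, drawn by distance in kb from the first TSS (the start of the longest coding transcript) with the gene as a black bar, TSS peaks solid, body peaks hatched and summits as red ticks. In CDKN1A, MDM2, GADD45A, GADD45B and BTG2 the separate peaks of the control shRNA list were 1 unbroken peak upon shRNA7, which ran past the gene's end.

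CDKN1A encodes p21, the inhibitor of cyclin-dependent kinases that carries out much of the p53 arrest. It lies at chr6:36644237-36655114 on the plus strand and has 5 annotated TSSs. With the control shRNA it had a TSS peak of 183 tags and body peaks of 117 and 216 tags. Upon shRNA5 these were replaced by a single peak of 12769 bp with 1048 tags, and upon shRNA7 by a single peak of 15136 bp with 2972 tags. RNAPII thus went from 3 separate peaks to 1 that covered 94.4% of the gene upon shRNA5 and 100% upon shRNA7, against 77.2% with the control shRNA.

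The highest summit of a gene is here the summit of its peak with the highest fold enrichment over local background. That of CDKN1A stayed in place through these changes. It lay between 2255 and 2309 bp after the first TSS in all 5 lists, at most 48 bp from an annotated TSS of the downstream cluster whose upstream bases are printed above. The p53 match at the first TSS was outside every peak with the control shRNA and upon shRNA5, and inside a peak in the other 3 lists. Without doxycycline that peak was a separate one of 464 bp with 9 tags, and with doxycycline a separate one of 1542 bp with 58 tags. DINOL, a noncoding RNA gene on the opposite strand, overlaps this end of the annotation, and ChIP-seq tags do not tell the strands apart. In the doxycycline arm all peaks of CDKN1A together held 434 tags without the drug and 608 tags with it.

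GADD45A and GADD45B encode small stress proteins that bind p21, PCNA and stress-kinase components. GADD45A (chr1:68150884-68154017, plus strand) had 3 peaks with the control shRNA, of 76, 91 and 158 tags. Upon shRNA5 it had 1 peak of 8984 bp with 1072 tags, and upon shRNA7 1 peak of 9787 bp with 1693 tags. These ran 4.41 and 5.08 kb past a gene that is itself 3.1 kb long. The TSS peak and a body peak held 249 and 64 tags without doxycycline, and a single peak held 469 tags with it.

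The p53 match of GADD45A lies in an intron, 1583 bp after the first TSS, and was inside a peak in all 5 lists. With the control shRNA the body peak over it had its summit at -1 bp from the middle of the match. Upon shRNA5, where there was only 1 peak, its summit was also in this intron, at -118 bp from that point. In the other 4 lists the highest summit of GADD45A was at the TSS, between 1 and 57 bp after the first TSS. This gene was 1 of 2 whose highest summit did not stay within 131 bp over the lists.

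GADD45B (chr19:2476120-2478257, plus strand) showed the steadiest summit of the 8 genes, within a range of 14 bp over all lists. That summit lay 9 to 23 bp after the nearest annotated TSS. It lay 30 to 44 bp after the first TSS, the one with the TATAAA printed above. Its TSS peak and body peak held 155 and 57 tags with the control shRNA, and 255 and 130 tags upon shRNA5. A single peak of 6147 bp held 1152 tags upon shRNA7. The control body peak had its summit on the middle base of the p53 match, 1903 bp after the first TSS and in an untranslated exon. This did not recur in the other lists. Upon shRNA5 the summit of the body peak over the match lay 61 bp downstream of that base. Upon shRNA7 and with doxycycline the single peak over it had its summit at the TSS, and without doxycycline the match was outside every peak. In the doxycycline arm the TSS and body peaks held 193 and 25 tags without the drug, and a single peak held 349 tags with it.

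BTG2, an antiproliferative gene whose product recruits the deadenylation machinery to mRNAs, lies at chr1:203274619-203278730 on the plus strand. Its TSS peak held 68 tags with the control shRNA, 95 upon shRNA5, 105 at 0.0 ng/ml doxycycline and 88 at 1.0 ng/ml. Its body peak at the gene's end held 116 tags with the control shRNA and 333 upon shRNA5. Upon shRNA7 a single peak of 9090 bp held 1285 tags, and its summit lay 4434 bp after the TSS, beyond the gene's end, whereas in the other 4 lists the highest summit was 31 to 67 bp after the TSS. No peak of any list reached the p53 match, which is centred at -1868 bp from the TSS. In the doxycycline arm BTG2 had 3 small body peaks in each list, of 11 to 17 tags without the drug and 13 to 32 tags with it.

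PLK3, a stress-responsive Polo-like kinase, lies at chr1:45266049-45271662 on the plus strand and differed from the genes above. In 4 of the 5 lists its TSS peak was its only peak, with 64 tags with the control shRNA, 88 upon shRNA5, 126 without doxycycline and 75 with it. Upon shRNA7 the TSS peak held 234 tags and remained separate, and a body peak of 9977 bp with 684 tags appeared. That body peak also held the TSSs of DYNLT4, which overlaps PLK3 on the opposite strand, and BTBD19, so its tags cannot be given to PLK3 alone. The highest summit of PLK3 lay before the annotated TSS in every list, at -324 to -193 bp.

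MDM2, which encodes the ubiquitin ligase of p53, is the longest of the 8 genes, at chr12:69201957-69239324 on the plus strand. It had 5 peaks with the control shRNA, 1 at the TSS with 242 tags and 4 in the body with 1894 tags together. Upon shRNA5 the TSS peak held 430 tags and a single body peak of 36972 bp held 3369 tags. Upon shRNA7 both were 1 peak of 49316 bp with 10460 tags, which ran 10.59 kb past the gene's end, where CPM lies on the opposite strand. Without doxycycline MDM2 had 4 peaks with 1942 tags and with it 2 peaks with 2965 tags.

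MDM2 has 8 annotated TSSs, and its highest summit was at the same internal start in all 5 lists. The summit lay 868 to 892 bp after the first TSS, within a range of 24 bp, and 21 to 45 bp after the nearest TSS. The p53 match printed above ends upstream of that start and was inside a peak in all 5 lists, with the summit 113 to 137 bp downstream of its middle. This internal start is known as the p53-responsive promoter of MDM2, while the upstream start is used without p53. MDM2 was the gene with the highest tag density of the 8 upon shRNA7, at 212 tags per kb of peak, rank 64 of the 11973 coding genes with a peak in that list.

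BBC3 encodes PUMA, a BH3-only protein that starts apoptosis, and lies at chr19:47724079-47736023 on the minus strand. It was the 1 gene without a TSS peak in the control shRNA list, where its only peak held 96 tags in an intron. In all 5 lists its highest summit was in that intron, 6401 to 6458 bp after the first TSS and at least 4834 bp from the nearest annotated TSS. Upon shRNA5 and shRNA7 a peak with this summit was long enough to reach a TSS and held 457 and 1164 tags. Without doxycycline the intron peak held 173 tags and the TSS peak 26, and with doxycycline they held 149 and 35 tags. By fold enrichment the highest summit of BBC3 was thus away from the starts of its coding transcripts in all the lists. Starts of noncoding transcripts were not looked at, and the microRNA gene MIR3191 also lies within BBC3.

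XPC, the damage sensor of global nucleotide excision repair, lies at chr3:14186647-14220121 on the minus strand, 196 bp from the start of LSM3 on the opposite strand. Its TSS peak held 96 tags with the control shRNA, 261 upon shRNA5 and 554 upon shRNA7, and 88 and 129 at 0.0 and 1.0 ng/ml doxycycline. In all 5 lists this peak also held the LSM3 TSS, and its summit lay 54 to 110 bp inside LSM3, so these tags are shared between both genes. Body peaks of XPC numbered 1, 1, 4, 3 and 1 in the same order. The largest, upon shRNA7, was 22770 bp long with 1403 tags and ran 9.56 kb past the 3′ end of XPC, into TMEM43 on the opposite strand.

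**Figure D2:**
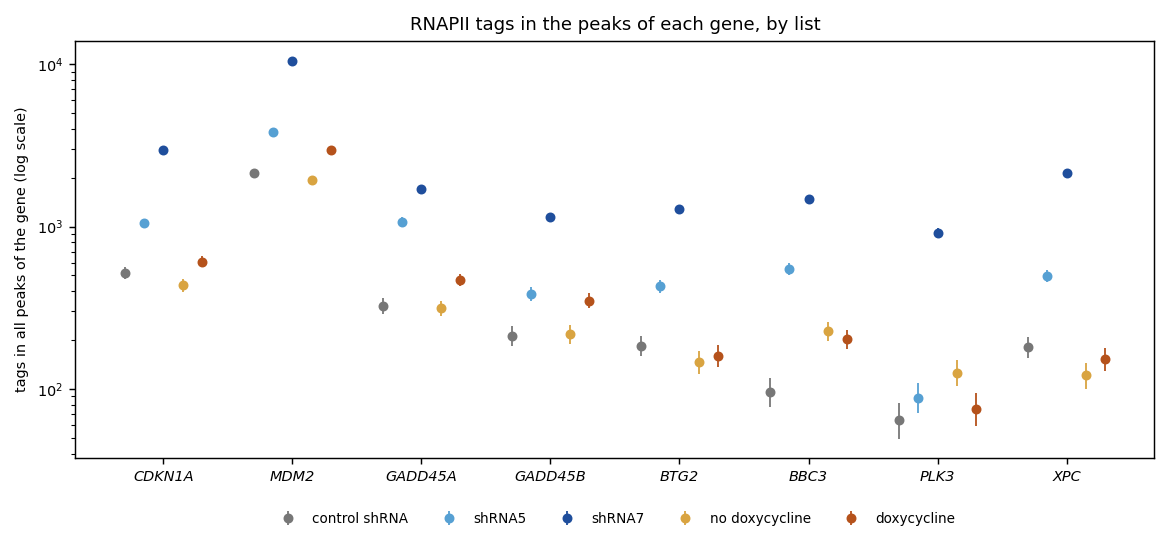
Tags in all peaks of each of the 8 genes (log scale) in the 5 lists, with points for the 1 library per list and bars for exact 95% Poisson intervals. All 8 genes were ordered control shRNA, shRNA5, shRNA7 from low to high, from 64 to 918 tags in PLK3 and from 2136 to 10460 tags in MDM2.

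More RNAPII tags lay over the 8 genes upon RECQL5 knockdown, and also over most other coding genes. Tags of all peaks of a gene were at least 1.5-fold higher upon shRNA5 than with the control shRNA in 7 of the 8 genes (background 93.1%), and upon shRNA7 in 8 of 8 (background 98.5%). The median ratio was 2.18 upon shRNA5, against 3.22 over all 4422 coding genes with a peak in both lists, and 6.37 upon shRNA7, against 6.62 over 4260 genes. By this measure the share of genes called was near the background and the medians were not above those of all genes. Both comparisons used the same control library.

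BBC3 had the highest ratio of all-peak tags of the 8 genes in both comparisons, 5.71 for shRNA5 (interval 4.59 to 7.17) and 15.3 for shRNA7 (interval 12.5 to 19.04). MDM2 had the lowest upon shRNA7, at 4.90 (interval 4.67 to 5.13), although it held the most tags. PLK3 had the lowest upon shRNA5, 1.38, and its interval of 0.985 to 1.93 included no change. CDKN1A had ratios of 2.03 (interval 1.83 to 2.26) for shRNA5 and 5.76 (interval 5.24 to 6.34) for shRNA7. The order control shRNA, shRNA5, shRNA7 held in 8 of the 8 genes (background 93.5%), and the shRNA7 level was above the shRNA5 level by 1.58-fold (interval 1.46 to 1.71) in GADD45A, the smallest such step.

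TSS tags alone gave larger values in some genes because a TSS peak that had joined the body peaks brought their tags with it. By TSS tags, 5 of the 7 genes with such a peak in both lists were at least 1.5-fold higher upon shRNA5 (background 85.4%), and 7 of 7 upon shRNA7 (background 98.2%). BBC3 could not be compared, as it had no TSS peak with the control shRNA. The TSS ratio of MDM2 upon shRNA7 was 43.2 (interval 38.0 to 49.3), far above its all-peak ratio, and that of CDKN1A was 16.2 (interval 14.0 to 18.96). PLK3 and XPC, whose TSS peaks stayed separate, had TSS ratios of 3.66 and 5.77 upon shRNA7, against a median of 3.73 over all 3210 genes compared.

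**Figure D3:**
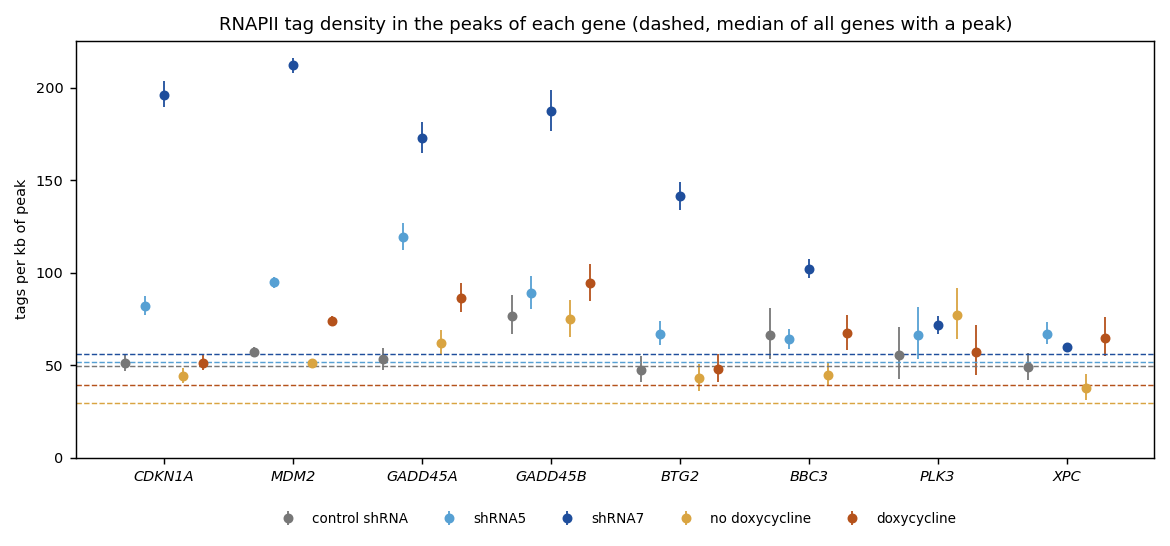
Tags per kb of peak for each of the 8 genes in the 5 lists, with exact 95% Poisson intervals as bars and the median of all coding genes with a peak in each list as dashed lines in the same colours. Upon shRNA7, CDKN1A, MDM2, GADD45A, GADD45B and BTG2 lay between 141 and 212 tags per kb, above a median of 56.2, while XPC was at 59.6.

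Tag density, the tags per kb of peak, allows levels to be compared between genes and does not grow when a peak only becomes longer. Median densities of the 8 genes were 54.3 tags per kb with the control shRNA, 74.6 upon shRNA5 and 157 upon shRNA7, against 49.7, 51.7 and 56.2 over all genes with a peak. Density was at least 1.5-fold higher in 3 of the 8 genes upon shRNA5 (background 14.4%) and in 6 of 8 upon shRNA7 (background 41.8%). Both shares were above the background, unlike those of all-peak tags. The median over all genes itself moved by 0.32 on the log2 scale upon shRNA5 and by 0.50 upon shRNA7.

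The density ratio upon shRNA7 was graded among the 8 genes. CDKN1A had 51.2 tags per kb with the control shRNA and 196 upon shRNA7, a ratio of 3.83 (interval 3.49 to 4.22), and MDM2 had 57.3 and 212, a ratio of 3.70 (interval 3.53 to 3.88). These ratios were above those of 99.9% and 99.8% of the 4260 coding genes compared. GADD45A was 3.25-fold higher (interval 2.89 to 3.67), BTG2 2.98-fold (interval 2.55 to 3.50) and GADD45B 2.44-fold (interval 2.11 to 2.84). BBC3 was 1.55-fold higher (interval 1.26 to 1.92), close to the median of 1.41 over all genes. PLK3 at 1.29 (interval 1.00 to 1.70) and XPC at 1.22 (interval 1.05 to 1.43) lay below that median. Relative to that median, CDKN1A was 2.72-fold higher and XPC was at 0.865. Summed peak length grew by the largest factors in BBC3 (1452 to 14384 bp), PLK3 (1155 to 12797 bp) and XPC (3703 to 35914 bp). In CDKN1A it went from 10070 to 15136 bp and in MDM2 from 37288 to 49316 bp. BBC3, PLK3 and XPC had the highest all-peak ratios of the 8, 15.3, 14.3 and 11.8, so their low density ratios were not small gains in tags in these peaks. In PLK3 and XPC these tags cannot be given to the gene alone. Of the 918 tags of PLK3 upon shRNA7, 684 lay in the peak with the DYNLT4 and BTBD19 TSSs. Of the 2141 tags of XPC, 1403 lay in the peak that ran into TMEM43, and 554 in the TSS peak shared with LSM3. Whether the density order follows peak length was not tested.

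Upon shRNA5 the order among the genes was different. GADD45A had the highest density ratio of the 8, from 53.2 to 119 tags per kb, 2.24 (interval 1.98 to 2.55), above that of 99.7% of the 4422 genes. MDM2 and CDKN1A followed at 1.66-fold (interval 1.57 to 1.75) and 1.60-fold (interval 1.44 to 1.78). GADD45B, PLK3 and BBC3 had ratios of 1.16, 1.20 and 0.968, and all 3 intervals included no change. Density was in the order control shRNA, shRNA5, shRNA7 in 6 of the 8 genes (background 68.5%), near the background. In BBC3 the value upon shRNA5, 64.0 tags per kb, was slightly below the control value of 66.1, and in XPC the value upon shRNA7, 59.6, was below the value upon shRNA5, 67.2. PLK3 at 66.3 upon shRNA5 and 71.7 upon shRNA7 had intervals that overlapped.

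**Figure D4:**
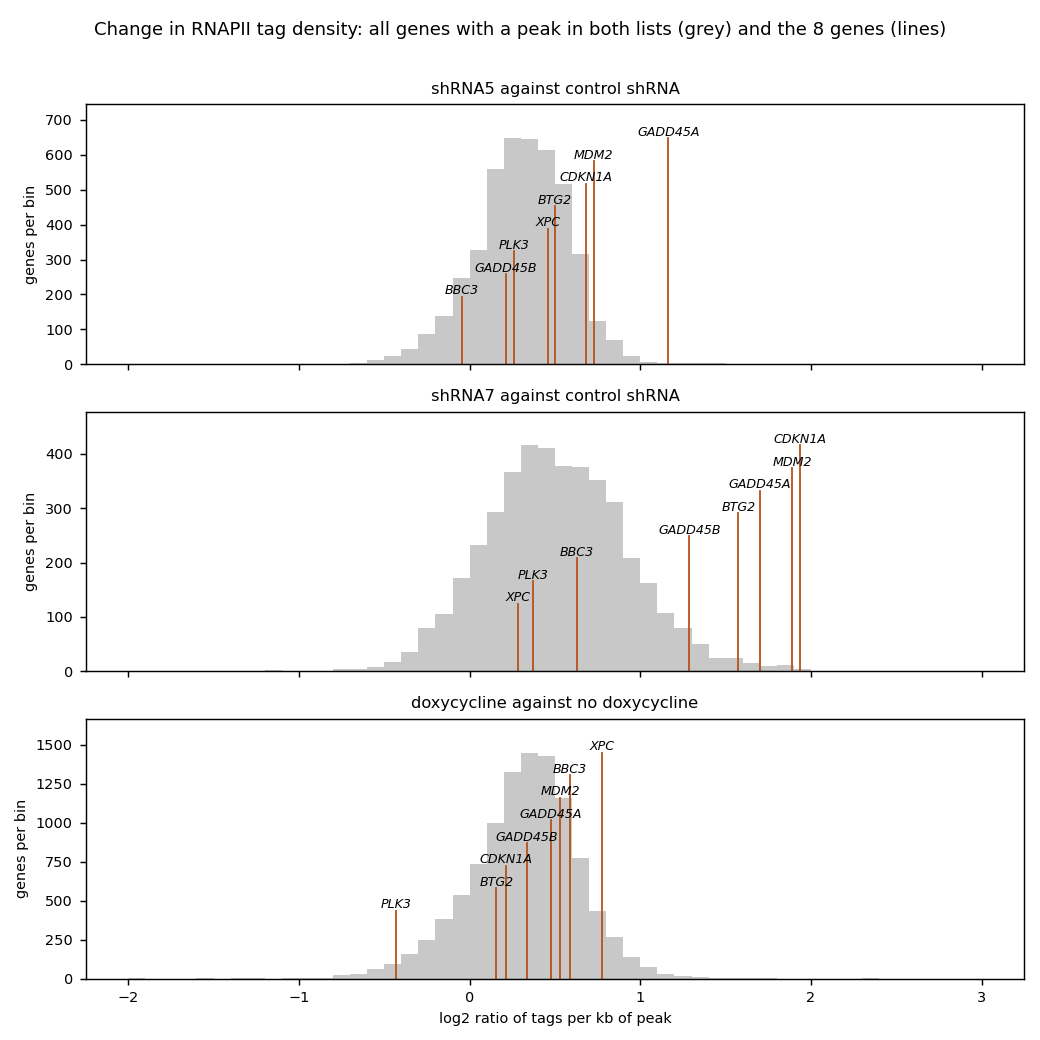
Distribution of the log2 ratio of tags per kb over all coding genes with a peak in both lists (grey, genes per bin of the histogram) in the 3 comparisons, with the 8 genes as lines whose height carries no value. Upon shRNA7, CDKN1A (3.83-fold) and MDM2 (3.70-fold) lay at the upper end of the distribution, and with doxycycline PLK3 (0.741) lay at the lower end.

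Peaks were joined in the 5 genes CDKN1A, MDM2, GADD45A, GADD45B and BTG2, and also in many other coding genes. All 19 peaks of the 8 genes in the control shRNA list were overlapped by a peak upon shRNA5, and all 19 upon shRNA7, against 97.4% and 88.4% of all control peaks. Upon shRNA7, 5 peaks each held more than 1 of the control peaks, with MDM2 joining 5 of them, CDKN1A and GADD45A 3 each, and GADD45B and BTG2 2 each. Of the 6 genes with more than 1 control peak, 3 had such a joining peak upon shRNA5 (background 44.5%, and 47.5% among genes no longer than MDM2) and 5 upon shRNA7 (background 51.7%, and 57.1% among genes no longer than MDM2). Body peaks were accordingly fewer in 5 of the 8 genes upon shRNA7 (background 5.99%) and more in 2, PLK3 and XPC (background 60.7%). Among coding genes no longer than MDM2 the backgrounds were 9.65% with fewer and 52.4% with more. Upon shRNA5 body peaks were fewer in 3 of the 8 genes (background 3.79%) and more in none (background 55.0%). A gene could have fewer only if it had a body peak with the control shRNA. That was so in 7 of the 8 genes and in 10.1% of all coding genes. The backgrounds with fewer body peaks include genes that had none to lose, so they are not like for like.

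The median length of the peaks over the 8 genes was 2413 bp with the control shRNA, 3355 bp upon shRNA5 and 8558 bp upon shRNA7, whereas over the whole lists it was 1905, 1834 and 2024 bp. A larger share of the gene was covered by peaks in 8 of the 8 genes upon shRNA5 (background 95.1%) and in 8 of 8 upon shRNA7 (background 95.4%). These counts were near the background. PLK3 was covered to 4.45%, 8.39% and 67.0% with the control shRNA, shRNA5 and shRNA7, and XPC to 2.78%, 7.25% and 73.0%.

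Genes covered over their whole length by peaks were 0 of the 8 with the control shRNA (background 6.68% of the coding genes with a peak and no longer than MDM2), 1 upon shRNA5 (background 7.56%) and 5 upon shRNA7 (background 14.0%). The 1 gene upon shRNA5 was GADD45A, and the 5 upon shRNA7 were CDKN1A, MDM2, GADD45A, GADD45B and BTG2. The median share covered was 52.1%, 81.3% and 100% over the 8 genes in the 3 hairpin lists. Over all genes with a peak and no longer than MDM2 it was 12.97%, 22.3% and 35.7%. Shorter genes are more readily covered, and the 8 genes had a median span of 8246 bp against 26979.5 bp over all coding genes.

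Peaks passed the annotated end of the gene in 6 of the 8 genes with the control shRNA (background 44.4% of the coding genes with a peak and no longer than MDM2), in 7 upon shRNA5 (background 53.8%) and in 8 upon shRNA7 (background 66.2%). Among the genes whose peaks passed the end, the median reach was 1.77, 2.50 and 4.57 kb in these 6, 7 and 8 genes, and 1.80, 2.29 and 3.18 kb in the background genes. The reach was thus longer upon both hairpins in the background genes as well. Upon shRNA7 the reach was from 3.29 kb in BBC3 to 10.59 kb in MDM2, and in MDM2, PLK3 and XPC it entered or passed a coding neighbour, so that part of these tags may belong to CPM, BTBD19 or TMEM43.

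**Figure D5:**
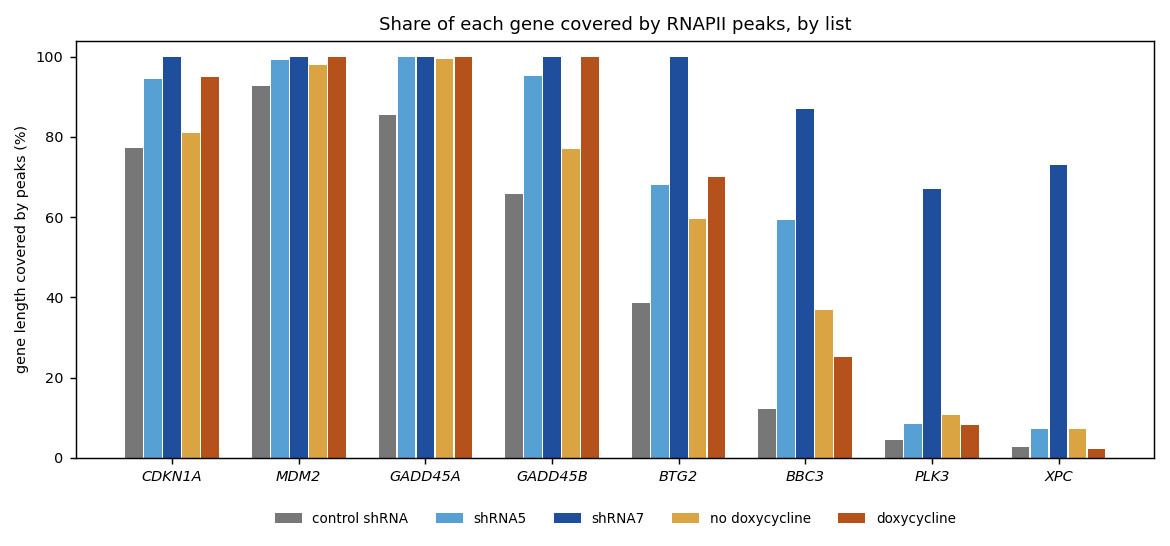
Share of the length of each of the 8 genes covered by RNAPII peaks, in percent, with 1 bar for each of the 5 lists. The lowest control values were those of PLK3 (4.45%) and XPC (2.78%), which were covered to 67.0% and 73.0% upon shRNA7, while BBC3 was covered less with doxycycline (25.1%) than without it (36.8%).

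Upon RECQL5 induction with doxycycline the changes were smaller and ran in both directions. TSS tags were at least 1.5-fold higher in 3 of the 8 genes (background 12.7%) and lower in 1 (background 16.7%). The 3 that were higher were GADD45A at 1.88-fold (interval 1.61 to 2.21), GADD45B at 1.81-fold (interval 1.51 to 2.17) and MDM2 at 1.66-fold (interval 1.52 to 1.80). In all 3 the TSS peak with doxycycline overlapped both the TSS peak and a body peak of the list without it, so these TSS ratios hold body tags as well. PLK3 was the 1 gene that was lower, from 126 to 75 tags, a ratio of 0.595 (interval 0.441 to 0.798). The median TSS ratio of the 8 genes was 1.41, and over all 9314 genes compared it was 1.00.

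Taking all peaks of a gene, the doxycycline ratio was at least 1.5 in MDM2 (1.53, interval 1.44 to 1.62) and GADD45B (1.60, interval 1.35 to 1.90), which are 2 of 8 genes (background 16.3%), and lower in PLK3, 1 of 8 (background 24.2%). GADD45A was at 1.498, just under the threshold, with an interval of 1.30 to 1.73. CDKN1A was at 1.401 (interval 1.24 to 1.59). BTG2 at 1.096, BBC3 at 0.894 and XPC at 1.26 had intervals that included no change.

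By density, 2 of the 8 genes were at least 1.5-fold higher with doxycycline (background 18.1%), XPC at 1.71 (interval 1.34 to 2.19) and BBC3 at 1.505 (interval 1.24 to 1.83), and none was lower (background 0.694%). Both had fewer tags in body peaks and less covered length with doxycycline. The median ratio of the 8 genes was 1.33, near the 1.27 of all 10375 genes. PLK3 had 77.1 tags per kb without doxycycline and 57.1 with it, a ratio of 0.741 (interval 0.549 to 0.994), which was below that of all but 1.79% of the genes. PLK3 was thus lower with doxycycline by each of these measures, but it had 1 peak in each list, so all rest on the same 126 and 75 tags. Upon shRNA7 its all-peak tags were at least 1.5-fold higher (background 98.5%). Of those 918 tags, 684 lay in the body peak that also held the TSSs of DYNLT4 and BTBD19.

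Body peaks were fewer with doxycycline in 5 of the 8 genes (background 44.5%) and more in 1, CDKN1A (background 14.1%). Only genes with a body peak without doxycycline could have fewer, and these were 7 of the 8 genes against 42.1% of all coding genes. A larger share of the gene was covered in 5 genes (background 25.1%) and a smaller share in 3, BBC3, PLK3 and XPC (background 72.2%). GADD45A and GADD45B were covered over their whole length with doxycycline, 2 of the 8 genes (background 3.37%), and no gene was without it (background 3.22%). Of the 24 peaks of the 8 genes without doxycycline, 19 were overlapped by a peak with it, against 45.6% of all 47060 peaks of that list.

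The highest false discovery rate (FDR) that the peak caller gave to a peak of these genes was 2.04% with the control shRNA, 0.42% upon shRNA5, and 1.08% and 3.35% without and with doxycycline. Upon shRNA7 it was 11.02%, in a body peak of XPC with 47 tags, the only one of the 88 peaks above 5%. The smallest peaks held 9 tags, in CDKN1A, MDM2 and XPC without doxycycline.

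In the pattern of TSS tags over the 5 lists, CDKN1A was compared with 3137 coding genes with a TSS peak in all lists. DNAJC9 was nearest, at a Euclidean distance of 0.30 in log2 tags, followed by CCT8 at 0.64 and TOB2 at 0.69. DNAJC9 had 161, 1214, 2803, 236 and 317 TSS tags in the order of the lists. These values are counts and depend on the length of the peak.

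The wider p53 pathway was looked at through 43 other known p53 targets, of which 18 (41.9%) held a p53 match. A TSS peak was present in 17 of the 43 genes with the control shRNA, 34 with shRNA5 and 38 with shRNA7, and in 39 and 35 at 0.0 and 1.0 ng/ml doxycycline. In the same order the background was 17.3%, 44.5%, 52.8%, 57.0% and 48.2% of all coding genes, so the share was higher upon both hairpins over all genes as well. TSS tags were at least 1.5-fold higher in 17 of the 17 genes compared upon shRNA5 (background 85.4%) and in 17 of 17 upon shRNA7 (background 98.2%). Their median ratios were 2.78 and 5.65, against 2.14 and 3.73 over all genes, and density was at least 1.5-fold higher in 14 of 20 upon shRNA7 (background 41.8%). With doxycycline TSS tags were higher in 6 (background 12.7%) and lower in 6 (background 16.7%) of 34 genes, with a median of 1.08 against 1.00 over all genes. The highest TSS ratios upon shRNA7 were those of CCNG1, an atypical cyclin, at 25.9, and E2F7, a repressor of cell cycle genes, at 20. The lowest were those of SESN1, a stress-responsive sestrin, at 2.62 and TIGAR, a regulator of glycolysis, at 2.91. This order depends on which peaks reach a TSS. By the tags of all peaks the ratios were 7.34 in CCNG1, 31.5 in E2F7, 2.62 in SESN1 and 16.3 in TIGAR, so TIGAR was above CCNG1.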

How the data were processed

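Per the labels and the study's methods, the authors aligned reads with Bowtie 0.12.7 to hg19 (GRCh37) after CASAVA 1.8 and called RNAPII peaks with MACS 1.4.2, separately for each library against IgG. For each peak the authors deposited a position and summit, a count of tags that was not scaled between libraries, a significance score (10 times the negative log10 of the p-value), a fold enrichment (the ratio of peak height over local background) and an FDR in percent. A single untreated IgG library was taken as background of both doxycycline lists.

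Genes and TSSs of protein-coding transcripts came from GENCODE release 44 lifted to GRCh37. Peaks were assigned with at least 1 bp of overlap, a TSS window of 500 bp on either side and spans widened by 500 bp. Covered length was that part of the gene inside peaks. Tags per kb are the tags of all peaks of a gene over their summed length. A fold of 1.5 was called. Intervals are exact 95% Poisson intervals for counts and exact Clopper-Pearson conditional binomial intervals for ratios of counts. No test was possible with 1 library in each group. The study's methods state that read numbers were similar among the samples compared within each arm, while the lists themselves hold only the tags inside peaks. Ratios were set beside those of all coding genes with a peak in both lists.

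All 8 genes are named. From the wider p53 list, and from a list of 12 paralogs, the 2 highest and 2 lowest ratios of TSS tags upon shRNA7 are named, and for CDKN1A the 3 genes nearest in log2 TSS tags. The genes and lists were chosen with earlier results of these data known, and 2 genes of the comparison lists are not reported here. Sequences were read from the GRCh37 genome with pyfaidx 0.9.0.4, and Python 3.11.15, pandas 2.3.3, numpy 2.4.6 and scipy 1.17.1 were used. The assignment was tested on simulated data. Alternatives were a significance score of at least 100, an FDR of at most 5%, a fold enrichment of at least 10, an overlap of at least 200 bp, a TSS window of 1 kb, the longest transcript only and, added after the data were seen, all-peak tags and tags per kb.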

Additional observations from a re-analysis of the deposited data

How the results depend on the processing

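Of 160 values recomputed under the alternatives for 24 results, 144 moved by less than the limit used and 16 by more, and none changed direction. An FDR of at most 5%, an overlap of at least 200 bp and a TSS window of 1 kb moved none. With a significance score of at least 100, 4 genes had a body peak with the control shRNA, and body peaks numbered 3 upon shRNA7, 6 without doxycycline and 5 with it. With a fold enrichment of at least 10, 1 gene had a body peak upon shRNA5 and 3 with doxycycline, and body peaks numbered 1 upon shRNA5, 3 upon shRNA7 and 5 with doxycycline. These filters keep fewer peaks by construction. With the longest transcript only, the CDKN1A TSS fold with doxycycline was 6.44, on 9 and 58 tags, and no hairpin fold could be had because no control peak touched that TSS. With the tags of all peaks, chosen after seeing the data, the CDKN1A folds were 2.03 upon shRNA5 and 5.76 upon shRNA7. With tags per kb, also chosen after seeing the data, they were 1.60 and 3.83, 3 genes were at least 1.5-fold higher upon shRNA5, and 0 were lower with doxycycline. No paired analysis was possible because there was just 1 library in each group, and for the same reason no replicate could be left out. The lists hold no tags outside peaks, so a gene region without a peak has no value.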

Other observations

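Among 12 paralogs of the 8 genes, a TSS peak was present in 7 with the control shRNA, 10 upon shRNA5, 9 upon shRNA7 and 10 in each doxycycline list. The background of all coding genes was 17.3%, 44.5% and 52.8% in the hairpin lists, then 57.0% without doxycycline and 48.2% with it. The highest ratios of TSS tags upon shRNA7 were those of BTG1, at 15.7 (interval 13.4 to 18.6), and TOB2, at 14.6 (interval 12.6 to 17.1), both antiproliferative relatives of BTG2. The lowest were those of PLK4, the kinase of centriole duplication, at 3.86 (interval 3.20 to 4.69), and MDM4, the partner of MDM2, at 5.08 (interval 4.10 to 6.34). By the tags of all peaks this order did not hold. Those ratios were 15.7 in BTG1, 5.40 in TOB2, 7.02 in PLK4 and 17.7 in MDM4. BTG1 differed from BTG2 in density, with 121 tags per kb with the control shRNA and 100.9 upon shRNA7. Its tags nevertheless went from 156 to 2454, while its summed peak length went from 1292 to 24322 bp. In BTG2 that length went from 3877 to 9090 bp. CDKN1C and BTG4 had no peak in any list.

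BTG3, named after its values were seen, had 1068 tags in body peaks with the control shRNA, 1798 tags in all peaks upon shRNA5 and no peak upon shRNA7. Of all control peaks, 88.4% were overlapped by a peak upon shRNA7, so other control peaks also had none there. A region without a called peak has no value, and a missing call cannot be told from a loss of polymerase. Without doxycycline it had 436 tags and with it 876.

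Of 6 regulators of the pathway (ATM, CHEK1, CHEK2, EP300, USP7 and RBBP6), 5 had a TSS peak with the control shRNA, 5 upon shRNA5 and 6 in each of the other lists. The background of all coding genes was 17.3%, 44.5% and 52.8% in the hairpin lists, then 57.0% without doxycycline and 48.2% with it. RBBP6, a ubiquitin ligase that binds p53 and the retinoblastoma protein, had 130 TSS tags with the control shRNA, 1055 upon shRNA5 and 44 upon shRNA7. All its peaks together held 445, 1687 and 565 tags in the same order, so the low TSS count upon shRNA7 was not a lower count over the gene. The 3 densities of all its peaks were 45.4, 58.5 and 71.7 tags per kb. As with BTG3, tags outside called peaks are not counted.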
